A study of Rattus norvegicus with 18 samples.

Results

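The comparison described here set 3 trained high responder rats (HRTT) against 3 trained low responder rats (LRTT). They are 6 of the 18 rats of the series and were chosen by the group that their labels give. The question was which genes of the calf muscle differ between rats that gain much and rats that gain little running capacity from the same training. Both lines were bred from the heterogeneous N:NIH stock by selection on the gain in treadmill running distance, and all responder rats were males of generation 15, first tested at 10 to 12 weeks of age. HRTT and LRTT rats ran on a treadmill for 8 weeks, 3 days per week, and gastrocnemius muscle was taken 48 hours after the last running test. Untrained rats of the same lines, 3 HRT and 3 LRT, are separate animals that were tested for running capacity but not trained. The lines are outbred, so that rats of one line are not genetically identical, and line and training response are one and the same factor here. The sources used here do not give the litter of a rat or the time of day at which the muscle was taken.

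Skeletal muscle adapts to endurance training through changes in its calcium handling, contractile proteins, capillaries, matrix and mitochondria. Each contraction starts with calcium released from the sarcoplasmic reticulum and ends when the SERCA pump returns it, and a lasting rise in calcium acts on genes through the phosphatase calcineurin. A calf muscle also holds nerve branches wrapped in Schwann cell myelin, connective tissue that runs into the tendon, vessels and resident immune cells, all of which add RNA to a sample of whole muscle.

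The values came in 2 forms. One is the count of reads per Ensembl gene identifier in every rat, which can be tested. The other is a table of genes by symbol that the authors deposited for this comparison, with 1 pooled expression level per group and no value per rat. Identifiers and symbols could not be paired (0 of 32882 identifiers matched the RefSeq table), so named genes below have a level in HRTT and a level in LRTT without SD or test, and tested genes are known only by their identifiers. The table holds only genes that the authors selected for a difference between these same rats. A difference between its 2 level columns is therefore a description, and a gene outside the table has no level here. In bulk muscle, fewer cells of a type and less RNA per cell cannot be told apart.

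Total counts ranged from 25084058 to 38066798 in the 6 trained libraries, and a rat had counts on 16408 to 17316 genes. The median SD between rats of a group over the 13478 tested genes was 0.18 in HRTT and 0.21 in LRTT on the log2 scale of CPM, the counts scaled to the library total. A number in the column headings, whose meaning is not given, was 3 for all HRTT and 2 for all LRTT libraries. It was 2 for all HRT libraries and 3, 1 and 1 for LRT replicates 1, 2 and 3. Line differences in trained or untrained rats therefore cannot be told apart from this number. The tissue could not be checked against its markers, since none of the 6 skeletal muscle markers looked for is in the table.

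The table holds 255 entries under 254 names, of which 68 had the higher level in HRTT and 187 the lower. The median ratio was 2.19 among the entries higher in HRTT and 2.32 among those lower in HRTT. A ratio of 4 or more was found for 34 entries, 8 higher and 26 lower. Of 413 symbols in lists of muscle functions and cell types, 43 (10.4%) are in the table. Of these, 8 had the higher and 35 the lower level in HRTT. Some of the 43 are genes that the study names from these same rats, so their presence and direction were known beforehand. The table holds none of the listed genes of fast fibre contraction, of the nuclear encoded respiratory chain, of glycolysis, of the neuromuscular junction or of the interferon response. It also holds none of the listed markers of adipocytes, macrophages, T cells, endothelium or fibroblasts. These lists are short, and other genes of immune cells and interferon, picked out after their values were seen, are in the table. Cd247 was at 0.727 in LRTT and 0.235 in HRTT, Cd6 at 6.21 and 2.36 and Lyz2 at 28.9 and 17.2. The interferon-induced Ifi27 (85.0 and 177) and Irgm (5.65 and 9.27) were higher in HRTT.

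**Figure D1:**
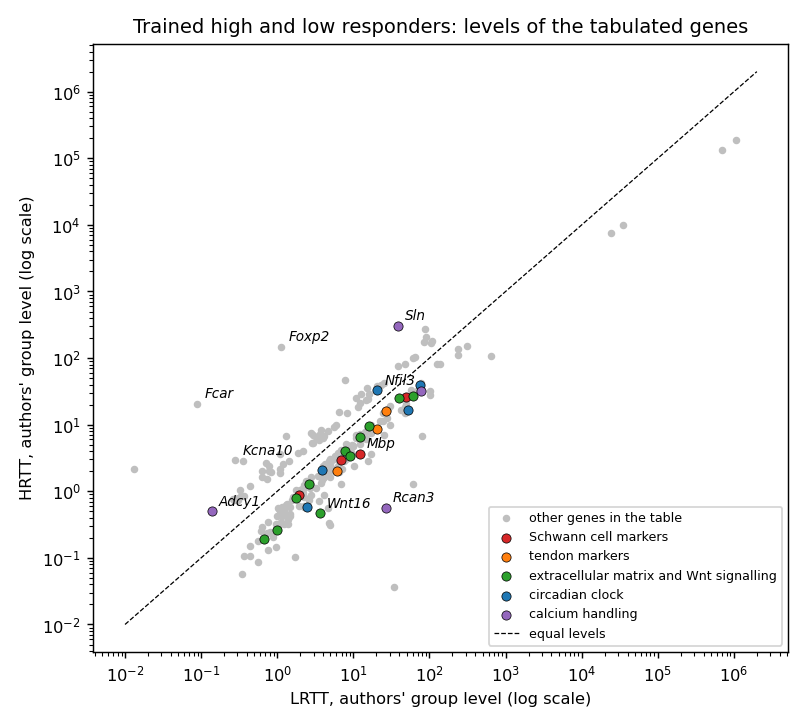
Authors' pooled level in LRTT (horizontal, log scale) and HRTT (vertical, log scale) of the 255 entries of the table, 1 point per entry, with members of 6 gene lists in colour and the dashed line at equal levels. Most points, 187, lie below the line, including every plotted Schwann cell, tendon, matrix and Wnt gene, while Sln, Adcy1 and Nfil3 lie above it.

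Calcium handling held some of the widest differences in level. Sln, the sarcolipin that slows the SERCA pump, had a level of 38.1 in LRTT and 304 in HRTT, a ratio of 7.997. Adcy1, an adenylyl cyclase that makes cyclic AMP, was at 0.137 in LRTT and 0.504 in HRTT. Both were thus higher in the high responders. The regulators of calcineurin lay the other way: Rcan1 was at 77.2 in LRTT and 32.0 in HRTT. Rcan3, of the same family, was at 26.6 in LRTT and 0.57 in HRTT. Of the 24 genes of the calcium list, these 4 are in the table, 2 in each direction. The study names Sln, Adcy1 and Rcan3 from these same rats, so their presence and direction were known beforehand. Other genes of ion transport are in the table too. Kcna10, a voltage-gated potassium channel that the study names, had 0.279 in LRTT and 2.90 in HRTT. Atp1a4, a catalytic subunit of the sodium pump, had 1.71 in LRTT and 0.104 in HRTT.

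Few genes of contraction are in the table, and those of heart muscle differed in both directions. Myh6, the alpha heavy chain of heart myosin, was at 4.79 in LRTT and 0.332 in HRTT. Actc1, the alpha actin of heart, differed in the opposite sense, with 12.5 in LRTT and 28.9 in HRTT. These are the 2 of 6 heart muscle genes in the table. Of 15 slow fibre genes, Myh7b (2.74 in LRTT, 1.25 in HRTT) and the stretch-responsive Ankrd2 (42.7 and 16.4) are listed, both lower in HRTT. Among 20 genes of myogenesis, the early myogenic factor Myf5 was at 0.833 in LRTT and 1.94 in HRTT. Myogenin (Myog), which drives later differentiation, was at 12.3 in LRTT and 5.06 in HRTT, and Ankrd1 at 9.66 and 4.89. So the early and the later factor of that list differed in opposite senses. Of 20 genes linked to muscle atrophy, Chac1 (30.1 in LRTT, 9.87 in HRTT) and the cell cycle inhibitor Cdkn1a (14.5 and 6.26) are in the table.

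The circadian clock is a loop in which Bmal1 and Clock act at E-box motifs of genes that include their own repressors, while Dbp and Nfil3 compete at D-box motifs of output genes. Of its 20 listed genes, 5 (25%) are in the table. The study names all 5 from these same rats, so their presence and direction were known beforehand. Ciart, a repressor of the loop, had 2.47 in LRTT and 0.582 in HRTT. Per1, a period gene, had 3.86 and 2.07, and Bhlhe40, which represses at E-boxes, had 75.3 and 39.3. Dbp, the D-box activator, had 52.4 in LRTT and 16.4 in HRTT. Nfil3, the D-box repressor, was the 1 clock gene higher in HRTT, with 20.5 in LRTT and 33.1 in HRTT. The activator and the repressor of the D-box thus differed in opposite senses, at group levels that carry no error.

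To show where the E-box motif (CACGTG, which reads the same on both strands) lies in the clock genes of the table, the 250 bases before the start of the gene are given for the 2 of the 5 that hold it, from RefSeq on the build GRCr8, 5′ to 3′ on the strand of the gene, with E-boxes in capitals. Ciart lies on the minus strand (window chr2:186112247-186112496) and Bhlhe40 on the plus strand (window chr4:143174200-143174449).
Ciart: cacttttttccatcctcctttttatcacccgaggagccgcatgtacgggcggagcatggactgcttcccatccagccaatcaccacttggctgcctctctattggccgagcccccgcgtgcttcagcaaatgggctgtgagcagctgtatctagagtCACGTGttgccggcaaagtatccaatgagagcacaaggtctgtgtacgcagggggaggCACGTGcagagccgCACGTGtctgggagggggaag
Bhlhe40: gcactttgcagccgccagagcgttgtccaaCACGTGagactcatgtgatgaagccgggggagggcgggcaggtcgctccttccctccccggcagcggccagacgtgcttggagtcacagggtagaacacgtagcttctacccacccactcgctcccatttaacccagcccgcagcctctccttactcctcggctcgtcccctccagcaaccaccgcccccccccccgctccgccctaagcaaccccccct
The Ciart window has 3 E-boxes, which begin 93, 35 and 21 bases before the start, and the Bhlhe40 window has 1, which begins 220 bases before it. The windows of Per1, Dbp and Nfil3 have none. Of the 17 clock genes with a window, 5 had an E-box in at least 1 window, and 1 had a D-box (TTATGTAA or TTACATAA). Among all 33469 windows of this length, 5.59% held the E-box and 0.828% the D-box. These are matches of letters only.

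Listed matrix genes in the table were all lower in the high responders. The extracellular matrix list has 7 of its 28 genes in the table, and 7 of 7 had the lower level in HRTT. All but Bgn are named by the study from these same rats, so their presence and direction were known beforehand. Col1a1, the main chain of type I collagen, had 60.2 in LRTT and 27.3 in HRTT. Col14a1, a collagen that binds to fibrils, had 7.86 and 3.96, the small proteoglycan Bgn 16.2 and 9.59, and Serpinf1, a secreted serpin, 40.3 and 25.2. The median log2 difference of HRTT over LRTT was -0.99 over these 7 genes, beside -1.22 over the 187 entries lower in HRTT.

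Of 20 genes of Wnt signalling, 4 are in the table, all 4 lower in HRTT, with a median log2 difference of -1.84. All but Sfrp4 are named by the study from these same rats, so their presence and direction were known beforehand. The ligand Wnt16 had 3.63 in LRTT and 0.467 in HRTT. Sfrp4 (9.12 in LRTT, 3.36 in HRTT) and Sostdc1 (0.986 and 0.263), which are secreted Wnt antagonists, lay on the same side as the ligand. Wisp2, a secreted protein induced by Wnt, was at 0.662 and 0.193.

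Markers of nerve and tendon lay on the same side as these genes. The Schwann cell markers reported here, 4 genes, were all lower in HRTT. Mbp, myelin basic protein, had 12.2 in LRTT and 3.67 in HRTT. Pmp22, a membrane protein of peripheral myelin, had 48.6 and 25.7, Prx, periaxin, 1.92 and 0.888, and S100b, a calcium-binding protein of Schwann cells, 6.92 and 2.90. Of 6 tendon markers, 3 are in the table, all lower in HRTT. Tnmd, tenomodulin, had 6.06 in LRTT and 1.99 in HRTT, Fmod, fibromodulin, 20.4 and 8.65, and Thbs4, thrombospondin 4, 27.1 and 16.0. No marker given here was at 0 in a group, and the part of nerve or tendon in the matrix and Wnt values was not tested.

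Other nerve and matrix genes were picked out after their values were seen, so their direction is no further support. Pmp2, a lipid carrier of myelin, had 2.75 in LRTT and 0.878 in HRTT. Ugt8 (0.81 and 0.241) and Fa2h (0.368 and 0.108) make the lipids of myelin, and Drp2 (1.16 and 0.429) binds periaxin. Stmn2, a protein of growing axons, had 1.41 and 0.42. Tnc, tenascin C, had 1.46 and 0.462, and Kera, keratocan, 25.3 and 6.997. Other genes of neurons had the higher level in HRTT, such as the membrane glycoprotein Gpm6a (0.636 in LRTT, 1.995 in HRTT) and the calcium channel subunit Cacna1a (1.07 and 1.86). The 1 smooth muscle marker in the table, Cnn1, was also higher in HRTT, with 0.288 in LRTT and 0.761 in HRTT, and so was the haemoglobin gene Hba-a2, whose 2 entries had 60.8 and 25.4 in LRTT and 99.7 and 42.3 in HRTT.

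**Figure D2:**
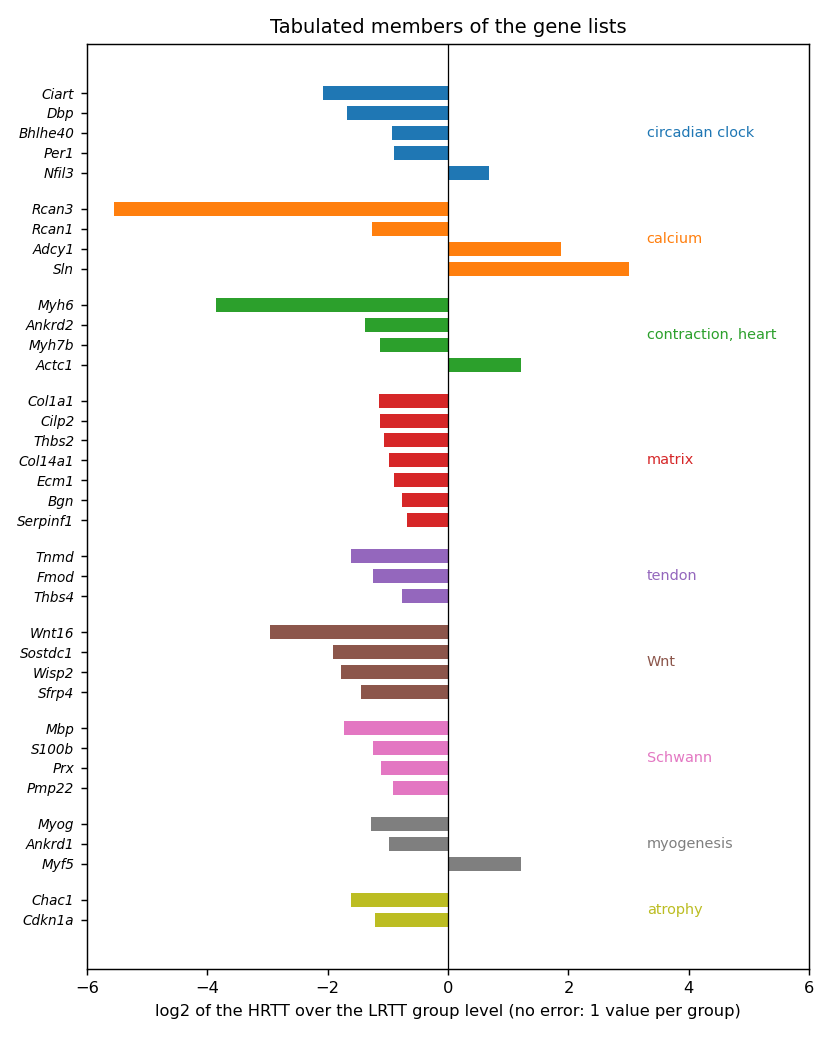
Log2 of the HRTT over the LRTT group level for the members of 10 gene lists that are in the table, 1 bar per gene, with no error because each group has 1 pooled level. Bars of the matrix, tendon, Wnt, Schwann and atrophy lists all point to lower levels in HRTT, from -0.68 for Serpinf1 to -2.96 for Wnt16, as do the 2 slow fibre genes, while the clock, calcium, heart muscle and myogenesis lists hold bars in both directions.

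Single genes of other lists were also in the table. Plin5, a lipid droplet protein, had 4.88 in LRTT and 2.57 in HRTT, the angiogenic peptide Apln 2.23 and 1.11, and Spp1, osteopontin, 3.59 and 0.713. Fos, an immediate early gene, had 1.08 in LRTT and 2.13 in HRTT. A list of 24 genes was taken mostly from those named in the text of the study, chosen on these samples. Its members not yet given are Lgi3 (0.352 in LRTT, 2.89 in HRTT), Vat1l (0.347 and 0.0577), Ecm1 (12.3 and 6.58), Thbs2 (2.65 and 1.26), Cilp2 (1.77 and 0.805), Igfbp6 (70.2 and 32.7) and Pla2g2a (2.28 and 0.821). Only Lgi3 among these 7 had the higher level in HRTT. Among entries higher in HRTT, the highest ratios of the HRTT over the LRTT level belonged to Fcar, an immunoglobulin A receptor, with 0.0886 in LRTT and 20.7 in HRTT, to Unc79, with 0.0132 and 2.13, and to the transcription factor Foxp2, with 1.13 and 149. Among entries lower in HRTT, the widest was one without a gene symbol, with 34.2 in LRTT and 0.0364 in HRTT, followed by Rcan3.

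The table for untrained HRT and LRT rats, which are other animals, tells which of these differences were listed without training too. By exact name, 58 names are in both tables, 22.8% of the 254 trained and 24.8% of the 234 untrained names. Of the 58, 52 lay in the same direction, 13 higher and 39 lower in the high responder line. Kcna10 was at 0.662 in LRT and 2.05 in HRT, and Lgi3 at 0.628 and 2.33, so the line difference of both was also listed without training. Per1 had 5.86 in LRT and 2.24 in HRT, Ciart 3.26 and 1.21, and Atp1a4 1.08 and 0.121. Of the clock genes, Dbp, Nfil3 and Bhlhe40 are not in the untrained table.

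The 6 names that lay in opposite directions were Sln, Actc1, Myh6, Kera, Chac1 and Trim45. The number in the column headings is 2 for all LRTT and HRT libraries and 3 or 1 for HRTT and LRT. A change of direction between the 2 states therefore cannot be told apart from that number. Sln was at 56.3 in LRT and 14.9 in HRT, and so higher in the low responder line without training and higher in the high responder line with it. Actc1 was at 14.0 in LRT and 8.32 in HRT, the same crossing. Myh6 crossed the other way, with 0.241 in LRT and 1.46 in HRT, as did Kera with 5.07 and 15.2. Chac1 had 15.7 and 26.5, and Trim45 had 1.53 and 6.75 beside 7.29 in LRTT and 3.77 in HRTT. The levels of the 4 groups come from tables that were normalized separately. Where a group is in 2 tables, its level differed by a median factor of 1.02 in LRTT and 1.00 in HRTT, far less than these differences.

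For Mbp, the level without training comes from the tables of trained against untrained rats, which share the LRTT or HRTT rats with the comparison above. It was at 2.81 in LRT and 1.89 in HRT, beside 12.2 in LRTT and 3.67 in HRTT, and so had its highest level of the 4 groups in LRTT. Ankrd2 followed the same order, with 11.9 in LRT and 7.54 in HRT. So did Car12, a carbonic anhydrase, with 1.61 in LRT, 0.864 in HRT, 4.06 in LRTT and 1.69 in HRTT, and Slc38a1, a glutamine transporter, with 1.35, 0.681, 4.14 and 1.66 in the same order of groups, both picked out after their values were seen, as was Ostn below. Rcan3 had 0.769 in LRT, Wnt16 1.05 and Col1a1 30.6, each below its level in LRTT. Ostn, the muscle-secreted peptide osteocrin, had 177 in LRT, above both LRTT with 38.8 and HRTT with 76.9.

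**Figure D3:**
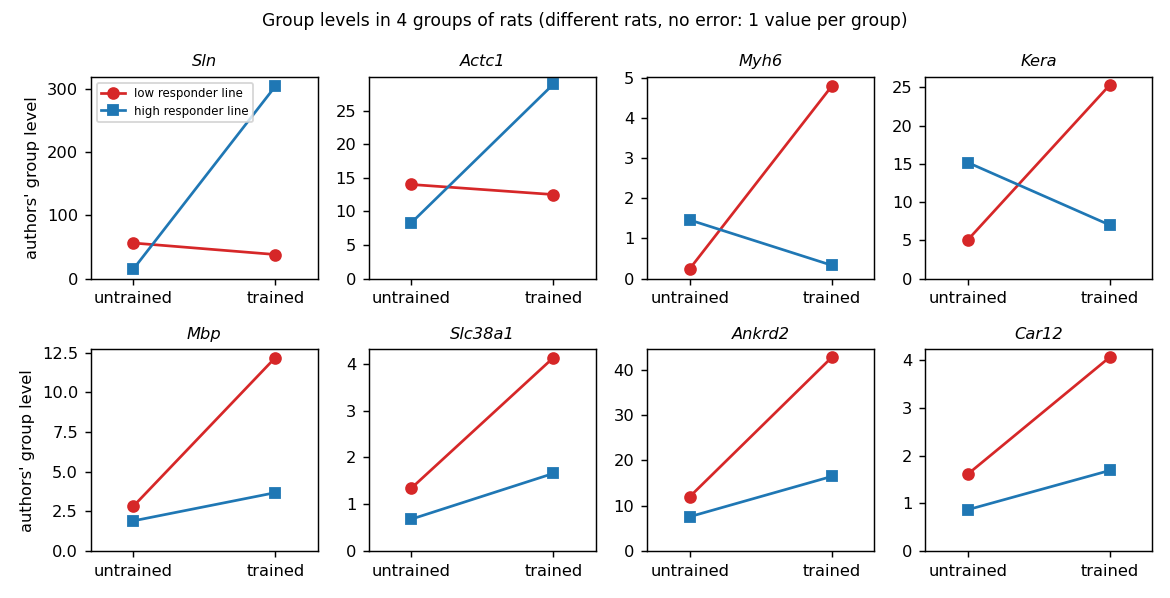
Authors' pooled levels (vertical axes, from 0) of 8 genes in untrained and trained rats of the low (red circles) and high (blue squares) responder line, 1 value per group without error, from tables normalized separately. The lines cross for Sln, Actc1, Myh6 and Kera, and the trained low responders hold the highest level for Mbp, Slc38a1, Ankrd2 and Car12. All LRTT and HRT libraries carry the heading number 2, and no HRTT or LRT library does.

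The counts show how far such differences hold against the spread between rats. With edgeR's quasi-likelihood test and Benjamini-Hochberg adjustment over 13478 genes, 1 gene (0.00742%) was called between HRTT and LRTT, which means an adjusted p below 0.05 and more than a 1.5-fold difference. Without the adjustment, 776 genes (5.76%) had a p below 0.05, and HRTT was higher in 326 and lower in 450 of them. The 3 rats of one group did not overlap the 3 of the other in 1473 genes (10.9%). Both shares are close to what 2 groups of 3 rats would give without any difference between them. The median absolute log2 difference over the entries of the symbol table was 1.21, and 247 tested genes had a fitted difference at least as wide, of which the call is 1. DESeq2's Wald test on the same 12 libraries called 33 genes, 19 higher and 14 lower.

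The called gene was ENSRNOG00000021555. It had 115, 131 and 105 counts in the HRTT rats (3.24, 3.47 and 3.21 CPM) and 1, 2 and 6 counts in the LRTT rats (0.0312, 0.0818 and 0.159 CPM). The groups were far apart, and every LRTT rat was near the floor of 3 counts. The fitted log2 difference was 5.08 ± 0.43 (SE), with an adjusted p of 0.000891 in edgeR's test. In the untrained rats the same gene had 131, 128 and 159 counts in HRT and 1, 6 and 3 counts in LRT. That comparison of other rats gave a log2 difference of 5.57 ± 0.43 (SE) with an adjusted p of 0.000268 in edgeR's test, and this gene was the 1 called gene (0.00742%) of HRT against LRT, where 1288 genes (9.56%) had an unadjusted p under 0.05.

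The gene with the next smallest p was lower in HRTT. ENSRNOG00000020669 had 1.49, 1.91 and 1.47 CPM in HRTT and 5.90, 7.89 and 6.96 CPM in LRTT. The log2 difference was -2.09 ± 0.28 (SE), and edgeR's adjusted p of 0.0517 missed the threshold. The untrained rats had 1.56, 1.38 and 1.40 CPM in HRT and 6.67, 3.81 and 2.85 CPM in LRT, so no rat of the high responder line reached the lowest of the low responder line.

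ENSRNOG00000038999 was the second of the genes higher in HRTT, with 67.4, 78.0 and 99.9 CPM in HRTT and 25.1, 29.9 and 25.7 CPM in LRTT. The log2 difference was 1.604 ± 0.26 (SE), with an adjusted p of 0.30 in edgeR's test. Untrained rats had 47.5, 52.8 and 74.1 CPM in HRT and 13.8, 22.3 and 10.4 CPM in LRT. Here too, the lines did not overlap in either state.

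ENSRNOG00000032378 was the second of the genes lower in HRTT, with 0.338, 0.291 and 0.184 CPM in HRTT and 4.12, 4.09 and 3.41 CPM in LRTT. The log2 difference was -3.81 ± 0.71 (SE), with an adjusted p of 0.37 in edgeR's test. In LRT, 2 rats had 3.27 and 3.79 CPM, as in LRTT, and 1 rat had 0.309 CPM, as in HRT, whose rats had 0.312, 0.452 and 0.233 CPM. The low responder line thus held rats at both levels. When the fit held only the 6 trained libraries, each of these 3 genes passed the threshold, with adjusted p-values in edgeR's test of 0.0263, 0.0401 and 0.00833 in the order given.

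**Figure D4:**
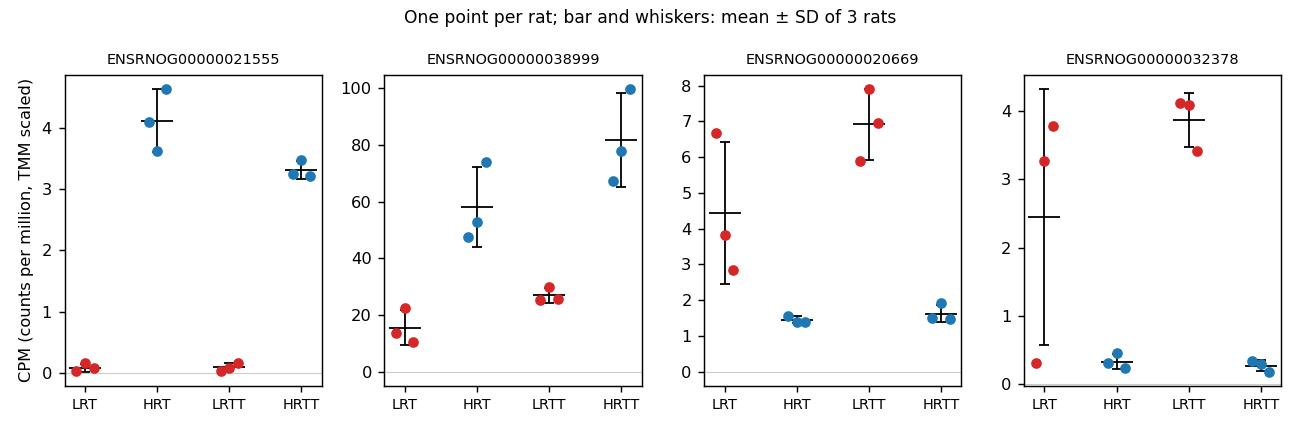
CPM (vertical axes) of 4 identifiers in the rats of 4 groups, 1 point per rat, with mean and SD of 3 rats. HRTT and LRTT rats do not overlap in any panel, and 1 LRT rat lies with the high responder line for ENSRNOG00000032378.

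Wide differences between groups did not always come from all rats of a group. Among tested genes, 64 had group means of CPM that differed at least 4-fold, 20 higher in HRTT and 44 higher in LRTT. The 2 groups did not overlap in 16 of the 20 and in 20 of the 44, beside 10.9% of all tested genes. As these genes were chosen for wide differences in the same rats, a share above that of all genes is partly set by the choice. In 8 of the 64, 1 rat carried more than 80% of the summed CPM of the higher group. In 7 of these 8 the rat was an LRTT rat, replicate 1 in 3 genes and replicate 3 in 4. Among the untrained rats, 38 genes differed at least 4-fold, without overlap in 22, beside 16.2% of all tested genes, and 1 rat carried more than 80% in 11. Pooled levels, such as those of the named genes above, do not tell these cases apart.

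Whether the lines differed by another amount with training than without was tested as an interaction. LRTT and HRT libraries carry the heading number 2, and HRTT and LRT libraries carry 3 or 1. The interaction thus cannot be told apart from that number. No gene was called (0%) by edgeR's quasi-likelihood test, 502 genes (3.72%) had an unadjusted p under 0.05, and DESeq2 called 3. Across the 13478 genes the log2 difference of trained rats correlated with that of untrained rats with a Pearson r of 0.305 and a Spearman rho of 0.233, a description over genes that are not independent. Without the filter on counts, the Pearson r was 0.0534. Of the 776 genes with an unadjusted p under 0.05 in trained rats, 550 (70.9%) had the same sign in untrained rats, beside 58.1% of all genes. Both comparisons had an unadjusted p under 0.05 in 127 genes with the same sign and in 15 with opposite signs.

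**Figure D5:**
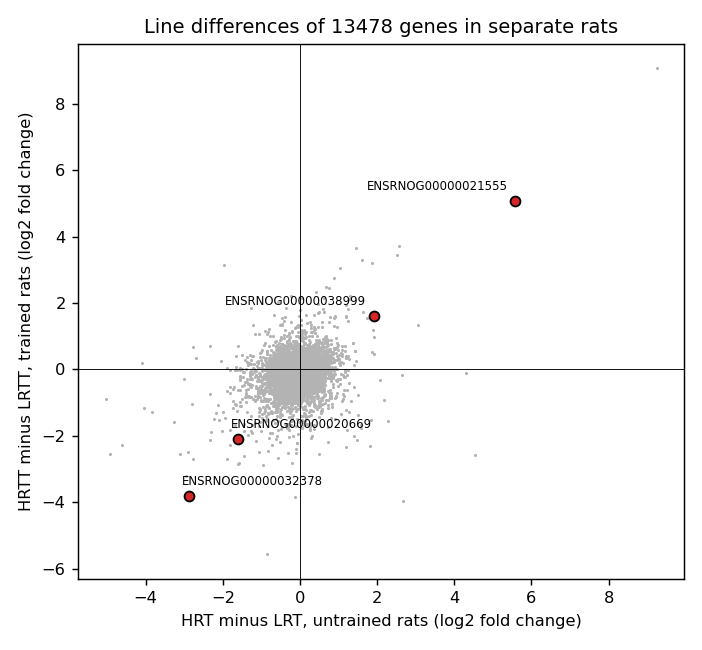
Fitted log2 difference of HRT minus LRT (horizontal) and of HRTT minus LRTT (vertical) for 13478 genes, 1 point per gene, from separate rats, with the 4 identifiers of the text in red. The 4 lie in the quadrants where both differences have the same sign, and ENSRNOG00000021555 lies at 5.57 and 5.08.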

How the data were processed

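RNA-seq libraries of gastrocnemius muscle, 1 per rat, were grouped by the titles of the samples. The authors deposited raw counts per Ensembl gene, without normalization. Per the file headers these were made with featureCounts 1.6.4 on Rnor_6.0 (Ensembl release 91) at strand setting 0, with a read counted for every gene it overlaps, so that overlapping and antisense genes can share counts. The methods name TopHat2 (2.1.1 in the submitters' processing notes), while the alignments in the headers are named as STAR names its output. The authors also deposited a table of selected genes per comparison, with 1 pooled level per group as a signal whose unit is not named there, from Cuffdiff. Their fold change, p-value and q-value columns were not used.

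The 12 responder libraries were fitted together in R 4.3.3 with edgeR 4.0.16 (filterByExpr with a count minimum of 10, TMM scaling, robust quasi-likelihood test, 8 residual degrees of freedom), with DESeq2 1.42.0 as an alternative. The biological coefficient of variation was 23.8%. TMM factors ranged from 0.951 to 1.04 and total counts from 25084058 to 41446415. In counts simulated for HRTT against LRTT over 13478 genes, the test called 39 of 65, 71 of 72 and 59 of 63 genes changed by a log2 of 1, 2 and 4, and 16 unchanged genes. The changed genes were drawn only from those above a minimum mean count. So many changed genes also make the adjusted threshold easier to pass, so these shares do not carry over to the measured counts. Replicates of a trained group gave chi-square values per gene between 15.5 and 261, and none was counted as a repeated library.

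The comparison and the gene lists were chosen with earlier results of these data known. Named were every called gene, at most 2 identifiers in each direction with the smallest p and a fold above 1.5, and, by symbol, the listed genes and those the study names. Genes given outside this rule are said to be chosen after their values were seen, have the widest ratios of their direction, or are the members of small counts. Some genes of the lists are not reported here. Of the 254 names, 219 matched RefSeq symbols and 226 matched symbols or synonyms. Other scalings, filters, tests, thresholds, a replicate block, fits of 6 libraries and each library left out were tried.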

Additional observations from a re-analysis of the deposited data

Results flagged for a closer look

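The untrained HCR and LCR rats, from lines selected on running capacity itself, take no part in the comparisons above. ENSRNOG00000021555 had 77, 56 and 98 counts in HCR and 2, 1 and 6 in LCR, with a mean of 2.102 CPM in HCR, so that the rats of the 2 capacity lines did not overlap and the high line was again the higher. ENSRNOG00000020669 also did not overlap, but with the high line higher, at 6.46, 6.44 and 6.51 CPM in HCR (mean 6.47) and 4.67, 3.93 and 2.51 CPM in LCR, the opposite of the responder lines. Both were noticed as signal in libraries outside the main comparison, and neither difference was tested here.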

How the results depend on the processing

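The count of called genes moved most with the tool and with the rats in the fit. HRTT against LRTT gave 1 gene with RLE size factors, without a fold change threshold and with glmTreat. It gave 2 without a filter beyond 1 count and 2 at an adjusted p under 0.10, 0 with at least 10 counts in every library, a filter that removes the called gene, 6 with only the trained libraries, 33 with DESeq2 and 42 with DESeq2 on the trained libraries (added after seeing the data). HRT against LRT gave 20 with DESeq2, 0 with at least 10 counts in every library and 5 with only the untrained libraries, and the interaction gave 3 with DESeq2.

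Leaving out 1 library gave 1 to 5 genes for HRTT against LRTT, 1 to 4 for HRT against LRT and 0 to 1 for the interaction. The first count was 5 without LRT replicate 1 or LRTT replicate 3, 4 without HRTT replicate 1 or LRTT replicate 1, and 2 without HRTT replicate 3, LRT replicate 2 or LRT replicate 3. The second was 4 without LRT replicate 1 or 2, 3 without HRT replicate 1, and 2 without HRTT replicate 1, HRTT replicate 3 or LRT replicate 3. The third was 1 without HRTT replicate 1. ENSRNOG00000021555 was past the threshold in 12 of 12 such fits and in all 7 other settings that tested it, with log2 differences of 4.68 to 5.86. The other 3 identifiers kept their sign throughout and crossed the threshold in 13 of the 23 other settings and in 5 of the 36 fits without 1 library.

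With the replicate block the counts were 1, 1 and 0, and 6 with only the trained libraries. Deviations of same-numbered HRTT and LRTT rats correlated across genes by 0.431, 0.0145 and 0.284, so the numbers were not taken to pair the rats. The correlation of trained with untrained differences was 0.0534 without the filter. There, 2688 genes differed 4-fold, and 1 rat carried more than 80% in 1931 of them. The correlation was 0.286 with at least 10 counts in every library. There, 13 genes differed 4-fold, and 1 rat carried more than 80% in 0 of them. Splitting names at commas gave 59 shared names. The cause of these changes was not tested. A planned fit with slow fibre genes as a covariate was not run, since identifiers could not be paired with symbols.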

Other observations

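Of 20 listed genes of fatty acid uptake and oxidation, 1 is in the table (Plin5), and of 6 adipocyte markers none. The lipid genes given next are outside these lists and were picked out after their values were seen. Scd2, a desaturase, was at 17.9 in LRTT and 8.66 in HRTT. Dgat2, which makes triglyceride, was at 16.8 and 7.49, Agpat2, an enzyme of the same path, at 4.93 and 2.21, Cidea, a lipid droplet protein, at 5.47 and 2.08, and Lipg, a lipase of endothelium, at 2.25 and 0.582. Scd, another desaturase, was at 1.35 and 0.637, beside 12.5 in LRT and 0.329 in HRT.

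Genes of the class I and II antigen-presenting RT1 region, picked out after their values were seen, differed in both directions. Only RT1-CE16 was higher in HRTT, at 8.28 in LRTT and 15.2 in HRTT. RT1-CE10 was at 9.36 and 3.93, RT1-T24-3 at 11.6 and 3.59 and RT1-Db2 at 1.38 and 0.378. The joint entry of RT1-T24-1 and RT1-T24-2 was at 1.45 and 0.424. Members of this family are near-identical copies that also differ between rats, so these levels are uncertain.

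Among RefSeq protein-coding genes, 7 pairs of direct neighbours on a chromosome are both in the table. Both members were lower in HRTT in 7 of 7, beside 187 of all 255 entries. One pair, RT1-T24-3 and RT1-T24-1, is of the RT1 family with uncertain levels. Among them, Irx5 was at 0.885 in LRTT and 0.205 in HRTT with its neighbour Irx3 at 0.967 and 0.276. Prelp was at 10.9 and 6.32 with its neighbour Fmod at 20.4 and 8.65.

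One identifier, not named here and picked out after its values were seen, had 0 counts in all 6 low responder libraries and 67, 68 and 85 counts in HRT and 67, 144 and 0 counts in HRTT, so 5 of 6 rats of the high responder line had it. ENSRNOG00000038999, which separated the responder lines, overlapped between the capacity lines, with 150, 117 and 24.3 CPM in HCR and 37.9, 120 and 141 CPM in LCR. ENSRNOG00000032378 had rats at both levels in both capacity lines, with 0.427, 4.91 and 3.44 CPM in HCR and 0.306, 3.65 and 0.249 CPM in LCR.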
